A study of Mus musculus with 12 samples.

Results

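Collagen genes encode the chains of the collagens, and 39 of them, represented by 70 probes, were found on an array of 38784 probes by their symbols (Col, a type number, a and a chain number). They comprised 11 fibrillar collagen genes with 21 probes, 6 genes of the basement membrane collagen, type IV, with 10 probes, and 22 other collagen genes with 39 probes, of 16969 genes that had a probe with 1 symbol. RNA came from mouse 3T3 cells, an established fibroblast line, without Shld1 (control) or with Shld1 at 10 nM, 100 nM or 1 µM, and each of the 4 groups had 3 arrays. Shld1 is a synthetic ligand of a destabilizing domain made from FKBP12, a prolyl isomerase, and the labels used here do not say whether the cells carried a protein fused to that domain, how long they were treated or what the control cells received. Each array set a Cy5-labelled 3T3 sample against the same commercial mouse reference RNA labelled with Cy3, so every value is a log2 ratio of sample over reference, centred on the array's median, and 0 means the ratio of the median probe. A ratio compares 1 transcript between 2 RNAs and does not say which collagen was the most abundant. A transcript made by fewer cells and a transcript made at a lower level in each cell cannot be told apart.

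A collagen molecule is a triple helix of chains, some types being built from copies of a single chain and others from chains of different genes. Fibrillar collagens such as types I, III and V form the cables of the connective tissue that fibroblasts secrete, type IV forms the sheet of basement membranes, and the remaining types decorate fibrils, anchor membranes, form fine filaments or span the cell membrane. The chains are modified, folded with the help of prolyl isomerases and chaperones such as Hsp47 in the endoplasmic reticulum, secreted, trimmed and cross-linked.

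An array had values for 30649 to 33615 probes, and array medians before centring lay between -0.20 and -0.10. Of the fibroblast markers on the array, 9 of 10 passed as higher than the reference (median log2 ratio 1.19), and Pdgfra passed as lower, at -0.72. Of 7 leukocyte markers, 4 passed as lower and 0 as higher. Other marker lists were mixed. Of 6 epithelial markers 3 passed as higher and 2 as lower, and of 5 adipocyte markers 2 and 3. Of 5 chondrocyte markers 3 passed as higher, of 4 muscle markers 2 and of 3 endothelial markers 1, and 0 of these as lower. Of all genes tested, 38.6% passed as higher and 34.4% as lower. No source states the direction of the ratio, which was taken from the dyes as sample over reference. With the opposite direction each sign given here would turn round. The log base was taken as 2. Precision is limited by the number of arrays. The labels do not say whether the arrays of a group came from separate cultures, so p-values measure only the spread between these samples, which may be technical.

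Of the 39 collagen genes, 33 had values for 2 or 3 arrays in each group and were tested among 14523 genes in a single limma fit over all 12 arrays with Benjamini-Hochberg adjustment. The 6 that were not tested were Col10a1 (values on 4 arrays), Col19a1 (2 arrays), Col26a1 (3 arrays), Col6a4 (8 arrays, none of them at 100 nM), Col8a2 (7 arrays) and Col9a3 (1 array, at -2.25). Of the 70 probes, 3 had no value on any array and 47 had a value on all 12.

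The upstream sequences of 2 fibrillar genes are shown because the ratio of Col1a2 to the reference was the highest of its class and Col3a1 had the smallest unadjusted p at 1 µM. They are windows of 260 bases, 250 before and 10 after the annotated start, from RefSeq for GRCm38.p6, at chr6:4505368-4505627 on the plus strand for Col1a2 and chr1:45311288-45311547 on the plus strand for Col3a1. Capitals mark CCAAT or its complement ATTGG and TATAAA or its complement TTTATA.
Col1a2: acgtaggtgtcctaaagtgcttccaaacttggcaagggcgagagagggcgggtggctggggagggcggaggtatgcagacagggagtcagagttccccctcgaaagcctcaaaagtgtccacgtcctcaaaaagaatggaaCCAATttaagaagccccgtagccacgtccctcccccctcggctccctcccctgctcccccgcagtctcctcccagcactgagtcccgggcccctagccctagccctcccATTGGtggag
Col3a1: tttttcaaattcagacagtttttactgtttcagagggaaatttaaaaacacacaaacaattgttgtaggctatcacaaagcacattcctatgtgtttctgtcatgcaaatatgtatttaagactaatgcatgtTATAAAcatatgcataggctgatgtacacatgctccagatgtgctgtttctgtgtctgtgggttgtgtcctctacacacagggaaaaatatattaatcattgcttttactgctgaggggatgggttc

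The Col1a2 window held CCAAT with its first base 109 bases before the annotated start and ATTGG beginning at the start itself, and no TATAAA. The Col3a1 window held TATAAA with its first base 117 bases before the annotated start, and no CCAAT. Windows were found for 31 of the 39 collagen genes, 34 windows in all, each searched on both strands. CCAAT was present in 38.2% of the collagen windows and in 34.6% of all 32851 windows, each cut to the same 260 bases, and TATAAA in 14.7% of the collagen windows and 12.7% of all windows. GGGCGG, the core of a GC box, was present in 61.8% of the collagen windows and in 33.4% of all windows. The motifs were counted separately, the letters of CCAAT and TATAAA do not contain each other, and a match says only that the letters are there.

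The fibrillar collagen transcripts lay on both sides of the reference, as genes in general did. Over all groups, 17 of the 33 collagen genes passed as higher than the reference, where 38.6% of all genes did, and 10 passed as lower, where 34.4% of all genes did. In the fibrillar class 5 of 11 passed as higher (45.5%) and 4 as lower (36.4%), near the shares of all genes. The median log2 ratio was 0.19 over the 33 collagen genes, 0.12 over the fibrillar ones, 0.25 over type IV and 0.20 over the others, against 0.03 over all genes tested. No array had its dyes swapped, so a probe that favours either dye and a true difference between the RNAs look the same here and cannot be told apart.

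Col1a1 and Col1a2 encode the chains of type I collagen, the main fibre of skin, tendon and bone. The log2 ratio of Col1a1 was 1.31, 0.96 and 1.05 on the control arrays, 1.03, 1.02 and 1.06 at 10 nM, 0.78, 1.06 and 0.97 at 100 nM and 0.86, 1.08 and 0.76 at 1 µM. That of Col1a2 was 2.08, 1.45 and 1.32 on the control arrays, 1.65, 1.64 and 1.36 at 10 nM, 1.78, 1.60 and 1.76 at 100 nM and 1.46, 1.73 and 1.31 at 1 µM. Both were above 0 on all 12 arrays, and the dose groups overlapped the control group. Their means over the groups were 0.99 (SE 0.05, adjusted p 1.63e-08, limma with Benjamini-Hochberg) for Col1a1 and 1.59 (SE 0.07, adjusted p 5.22e-09, limma with Benjamini-Hochberg) for Col1a2.

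Col5a1 and Col5a2, chains of the type V collagen that sits inside type I fibrils and limits their width, were also higher than the reference, at 0.97 (SE 0.07) and 0.92 (SE 0.09). Both were above 0 on all 12 arrays, with the lowest at 0.59 for Col5a1 and 0.31 for Col5a2. Col11a1, a chain of the fibrillar collagen of cartilage, was higher at 0.66 (SE 0.04), with a narrow range over the arrays of 0.55 to 0.80. The other chains of these types passed in the opposite direction. Col5a3 was lower than the reference at -0.29 (SE 0.10), with 3 of 12 arrays above 0. Col11a2 was lower at -0.33 (SE 0.07), with 1 array above 0, 10 nM array 3 at 0.03. Col2a1, the collagen of cartilage, was lower at -0.16 (SE 0.04) and was below 0 on all 12 arrays.

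Col24a1, a minor fibrillar collagen, was lower than the reference at -0.92 (SE 0.32, adjusted p 0.0229, limma with Benjamini-Hochberg), and it was the least steady of the tested collagens. Its log2 ratio was 0.28, -0.96 and -2.0 on the control arrays, -1.16, -1.86 and 2.23 at 10 nM, -0.80, -2.34 and -1.32 at 100 nM and -0.30, -1.77 and -1.04 at 1 µM. Only control array 1 and 10 nM array 3 were above 0. Its residual SD of 1.34 stood at the 99.7th percentile of all genes tested, whereas the median residual SD was 0.24 over the collagen genes and 0.27 over all genes. The remaining fibrillar genes did not pass against the reference: Col3a1, the partner of type I collagen in soft tissues, averaged -0.11 (adjusted p 0.150, limma with Benjamini-Hochberg), and Col27a1, a fibrillar collagen of cartilage, averaged 0.12 (adjusted p 0.292).

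**Figure D1:**
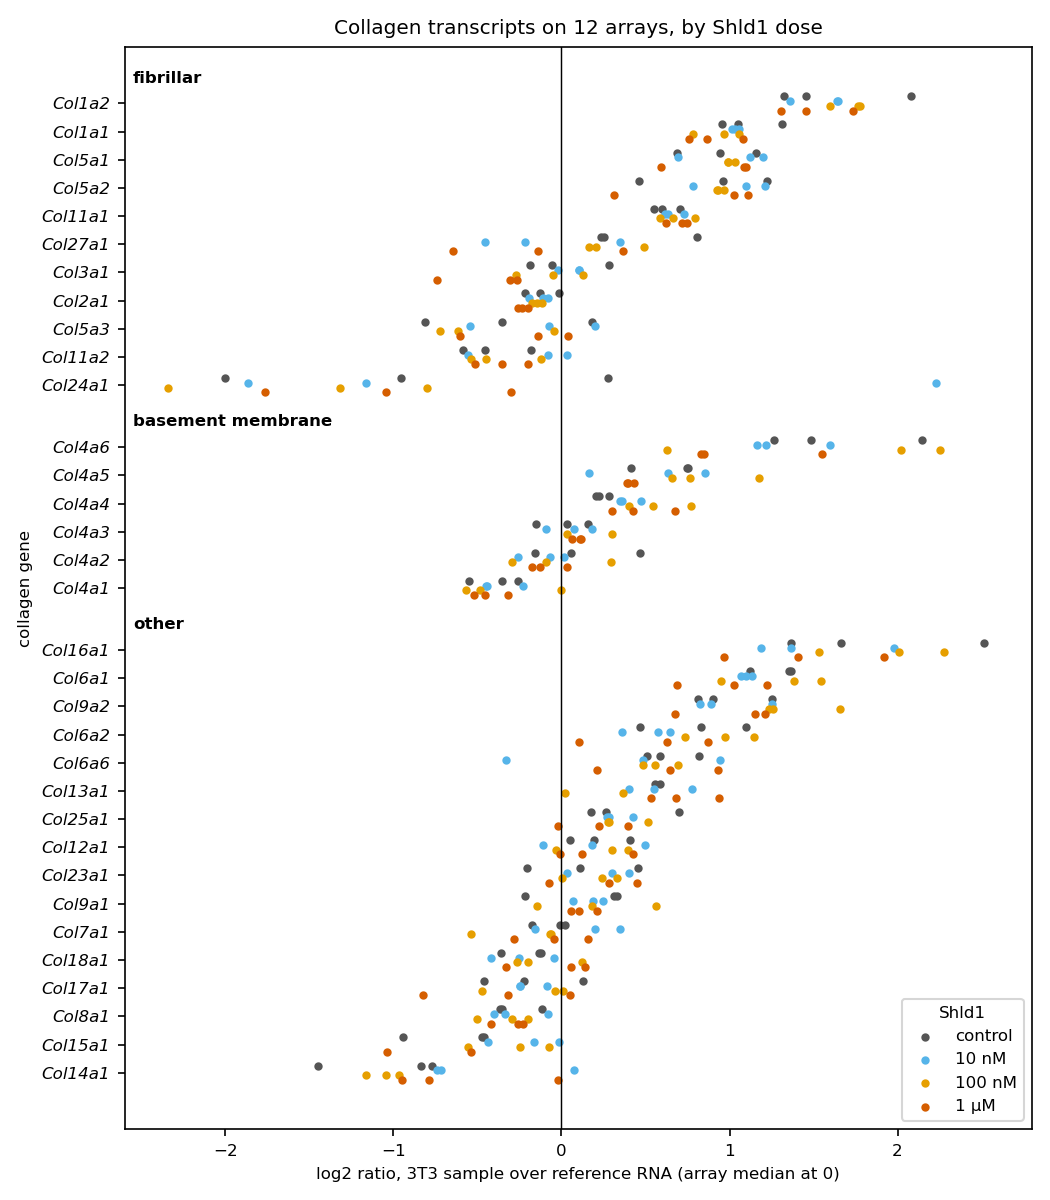
The log2 ratio of sample over reference RNA (horizontal axis) of each of the 33 tested collagen genes (rows, grouped as fibrillar, basement membrane and other) is drawn as 1 point per array, coloured by Shld1 dose. Col1a2, Col16a1 and Col6a1 lie above 0 on all 12 arrays, Col24a1 spreads between -2.34 and 2.23, and colours intermix within nearly every row.

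Among the type IV genes 3 of 6 passed as higher than the reference and 1 as lower, where 38.6% and 34.4% of all genes did. Col4a6 and Col4a5, which lie side by side on the X chromosome, averaged 1.42 (SE 0.14) and 0.61 (SE 0.07), and Col4a4, a chain of the kidney and lung basement membrane network, averaged 0.42 (SE 0.05). Col4a1 and Col4a2 form the basement membrane network found in most tissues. Col4a1 was lower at -0.39 (SE 0.06, adjusted p 1.07e-04, limma with Benjamini-Hochberg), ranging over the arrays between -0.57 and -0.01. Col4a2 averaged -0.03 (adjusted p 0.744, limma with Benjamini-Hochberg) and had values between -0.29 and 0.47. These 2 genes are read in opposite directions, and their RefSeq promoter windows share 78 bases at chr8:11312777-11312854 of GRCm38.p6. Col4a3, the partner of Col4a4, averaged 0.08 and did not pass (adjusted p 0.198, limma with Benjamini-Hochberg).

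In the third class 9 of 16 genes passed as higher and 5 as lower, where 38.6% and 34.4% of all genes did. Col16a1, whose collagen decorates fibrils, had the highest mean ratio of all the collagen genes, 1.68 (SE 0.12). Its values were 2.51, 1.67 and 1.36 on the control arrays, 1.98, 1.19 and 1.36 at 10 nM, 2.27, 1.53 and 2.01 at 100 nM and 1.92, 1.41 and 0.97 at 1 µM, with all groups overlapping. The beaded filament collagen, type VI, was represented by Col6a1 at 1.16 (SE 0.07), Col6a2 at 0.70 (SE 0.08) and Col6a6 at 0.54 (SE 0.10), and all 3 passed as higher. Col9a2, a chain of a cartilage collagen that binds fibrils, was higher at 1.09 (SE 0.07), and Col13a1, a collagen that spans the cell membrane, at 0.51 (SE 0.07).

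The 5 lowest of that class were Col14a1, Col15a1, Col8a1, Col17a1 and Col18a1. Col14a1, which binds the surface of fibrils, averaged -0.78 (SE 0.10, adjusted p 2.47e-05, limma with Benjamini-Hochberg) and was below 0 on 11 of 12 arrays. Col15a1 and Col18a1, collagens that carry sugar chains and sit near basement membranes, averaged -0.48 (SE 0.08) and -0.15 (SE 0.06). Col8a1, a network collagen of vessel walls and the eye, averaged -0.30 (SE 0.05), and Col17a1, a membrane collagen of epithelial cells, averaged -0.23 (SE 0.08). Col25a1, Col12a1 and Col23a1 passed as higher at 0.32, 0.20 and 0.19, while Col7a1 (-0.05) and Col9a1 (0.16) did not pass.

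In the control cells alone, 14 of the 33 collagen genes passed as higher than the reference, where 26.5% of all genes did, and 5 as lower, where 19.6% did. The higher ones included Col1a1 at 1.11 ± 0.18, Col1a2 at 1.62 ± 0.40 and Col6a1 at 1.28 ± 0.14 (mean ± SD, n = 3 each). The 5 lower ones were Col14a1, Col15a1, Col11a2, Col4a1 and Col8a1. The genes near 0 depend on where each array is centred. Without centring, 12 genes passed as higher and 7 as lower in control cells, and with all groups 15 passed as higher and 13 as lower. In the comparison of all groups Col12a1 and Col23a1 lost their calls, and Col3a1 (-0.26), Col4a2 (-0.18) and Col7a1 (-0.20) passed as lower. In that comparison Col27a1 (-0.03) and Col4a3 (-0.07) turned below 0 without passing.

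The weaker calls against the reference depended on the arrays that entered. With all groups, the count of lower genes was 6 without 10 nM array 2 or 100 nM array 2, against 10 with every array. Col24a1 lost its call without control array 3, 10 nM array 1 or 2, 100 nM array 2 or 1 µM array 2, and Col5a3 without control array 2, 10 nM array 2, 100 nM array 2 or 3, or 1 µM array 1. Col17a1 lost it without control array 2, 10 nM array 2, 100 nM array 2 or 1 µM array 3, and Col12a1 without array 3 of the control, 100 nM or 1 µM group. Col23a1 lost it in 7 and Col18a1 in 8 of the 12 fits that left out an array, among them those without 10 nM array 2 or 100 nM array 2. Col9a1 passed in 2 of these 12 fits. In control cells the count of lower genes was 2 without control array 1 or control array 2, against 5 with every array. Col4a1 and Col11a2 lost that call without either of these arrays, Col15a1 without control array 1, and Col8a1 in 8 of the 12 fits.

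Probes of the same gene often gave different ratios, so the size of a gene's ratio depends on the probes behind it. Of the 18 collagen genes with at least 2 probes measured on 6 or more arrays, 8 had probe means more than 1 log2 unit apart, 6 had them within 0.5, and the median distance was 0.64. In 6 genes the array ranges of the farthest probes did not overlap. For Col5a2 the probe means were 1.84 and -0.01, for Col11a1 1.34 and -0.01, for Col8a1 0.29 and -0.88, and for Col2a1 the 3 probes spanned -1.02 to 0.79. Col6a1 had probes at 1.55, 1.40 and 0.54, all above 0, and the 2 probes of Col4a5 averaged 0.65 and 0.61. The value of Col27a1 rests on 1 probe (0.12), because the other (1.40) was blank on 2 arrays. That of Col4a6 rests on 2 probes (1.31 and 1.52), and the probe left out, with values on 11 arrays, averaged 0.47. For Col25a1 the 3 probes used averaged 0.76, 0.10 and 0.09, and a probe left out, with values on 11 arrays, averaged -0.54. The Col12a1 probes averaged 0.47 and -0.06. For Col23a1 the probe used averaged 0.19 and the one left out, with values on 11 arrays, -0.01. Why probes differed was not tested.

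**Figure D2:**
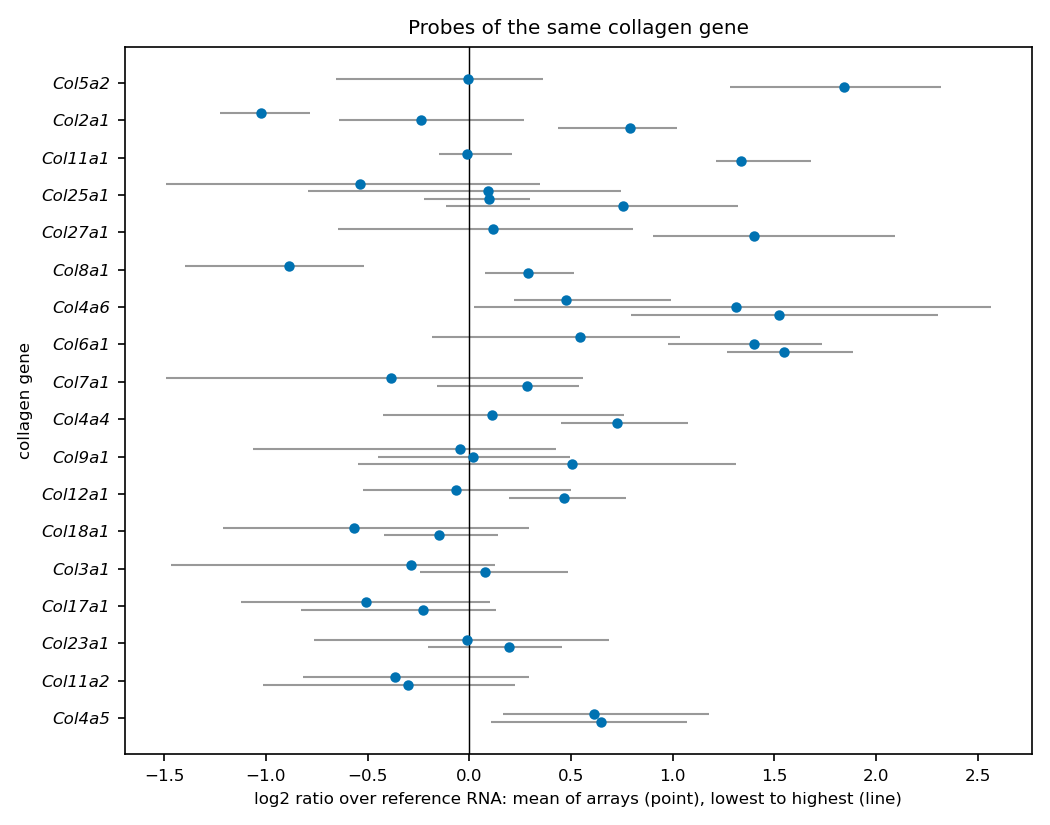
Each point is the mean log2 ratio over the reference of 1 probe (horizontal axis), the line spans its lowest to highest array, and rows are the 18 collagen genes with at least 2 probes on 6 or more arrays, sorted by the distance between their probes. The probes of Col5a2 lie at 1.84 and -0.01 without overlap, and those of Col4a5 at 0.65 and 0.61.

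At 1 µM Shld1, the highest dose, 0 of the 33 collagen genes passed in either direction, and 0 of all 14523 genes did (a background of 0% in each direction, limma with Benjamini-Hochberg). At an unadjusted p under 0.05 there was 1 collagen gene, Col3a1, against 4.26% of all genes. The estimates of 23 of 33 collagen genes were below 0, where 53% of all genes were, and these comprised 8 of 11 fibrillar, 4 of 6 type IV and 11 of 16 other genes. The median log2 difference was -0.04 over the collagen genes, -0.11 over the fibrillar, -0.13 over type IV and -0.03 over the others, against -0.02 over all genes. Leaving out each array in turn moved the collagen median between -0.08, without control array 2, and -0.02, without control array 1. The median over collagens on the 1 µM arrays was 0.18, 0.16 and 0.22 and on the control arrays 0.31, 0.26 and 0.26, over the 30 genes measured on every array. The means of the same genes overlapped, at 0.34, 0.23 and 0.20 on the 1 µM arrays and 0.51, 0.28 and 0.28 on the control arrays. The medians also overlapped control at 10 nM (0.23, 0.24 and 0.32) and at 100 nM (0.45, 0.29 and 0.23).

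Col3a1 had log2 ratios of -0.74, -0.31 and -0.26 at 1 µM, against 0.28, -0.19 and -0.05 in control cells. The 1 µM arrays all lay under the lowest control array, and no other collagen gene was separated downward at this dose, 1 of the 31 with values on all 6 arrays, where 4.21% of all genes were. The difference was -0.45 (SE 0.18, 95% interval -0.84 to -0.06), with an unadjusted p of 0.0289 and an adjusted p of 0.999 in limma with Benjamini-Hochberg. The group means were -0.44 ± 0.26 at 1 µM and 0.01 ± 0.24 in control cells (SD, n = 3 each). Both Col3a1 probes averaged below control, by -0.53 and -0.37, but only the second was separated from control by itself. The first had -1.466, -0.429 and -0.285 at 1 µM, against 0.077, -0.428 and -0.234 in control cells. Its 1 µM array 3 lay inside the control range and array 2 was next to the lowest control array. Leaving out each array in turn gave differences between -0.55 and -0.30, and none of them passed. The mean over 10 fibroblast markers ran between 1.03 and 1.24 on the 1 µM arrays and between 1.31 and 1.66 on the control arrays, without overlap. It overlapped control at 10 nM (1.13 to 1.34) and at 100 nM (1.21 to 1.53). How often the mean of 10 other genes is separated was not computed. At 1 µM 7 of the 10 had estimates below 0, where 53% of all genes did. The leukocyte marker mean over 7 genes ran between -0.80 and -0.33 at 1 µM and between -1.62 and -0.55 in control cells. None of these markers passed at 1 µM, and their part in the collagen values was not tested.

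Col27a1 had the next smallest p at 1 µM. Its log2 ratios were 0.37, -0.64 and -0.14 at 1 µM, against 0.80, 0.26 and 0.24 in control cells. One 1 µM array lay inside the control range and the others below it. The difference was -0.57 (SE 0.28, 95% interval -1.18 to 0.04, unadjusted p 0.0630 in limma), and the probe left out of the gene value gave -0.40. Col6a1 was at -0.30 (SE 0.19), and its 3 probes gave -0.20, -0.16 and -0.55. Its values of 1.22, 1.03 and 0.69 at 1 µM overlapped the 1.37, 1.36 and 1.12 of control cells. Above control, Col4a4 differed by 0.23 (SE 0.15) and Col14a1 by 0.43 (SE 0.29), and neither passed.

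Type I collagen showed no detectable difference at 1 µM with these arrays. Col1a1 averaged 0.90 ± 0.16 at 1 µM and 1.11 ± 0.18 in control cells (SD, n = 3 each), a difference of -0.21 with a 95% interval of -0.53 to 0.12. Col1a2 averaged 1.50 ± 0.22 at 1 µM and 1.62 ± 0.40 in control cells, a difference of -0.12 with an interval of -0.56 to 0.32. The direction of the Col1a2 difference rested on control array 1, without which it was 0.11, and it was 0.01 after quantile normalization. For the fibrillar genes other than these and Col3a1 and Col27a1, the estimates ran between -0.14 for Col24a1 and 0.09 for Col5a3, with -0.11 for Col2a1, -0.06 for Col5a2, -0.00 for Col5a1, 0.05 for Col11a2 and 0.08 for Col11a1. The type IV estimates at 1 µM were -0.55 for Col4a6, -0.23 for Col4a5, -0.21 for Col4a2, -0.04 for Col4a1, 0.08 for Col4a3 and the 0.23 of Col4a4. The Col4a6 probe left out of the gene value gave -0.02.

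**Figure D3:**
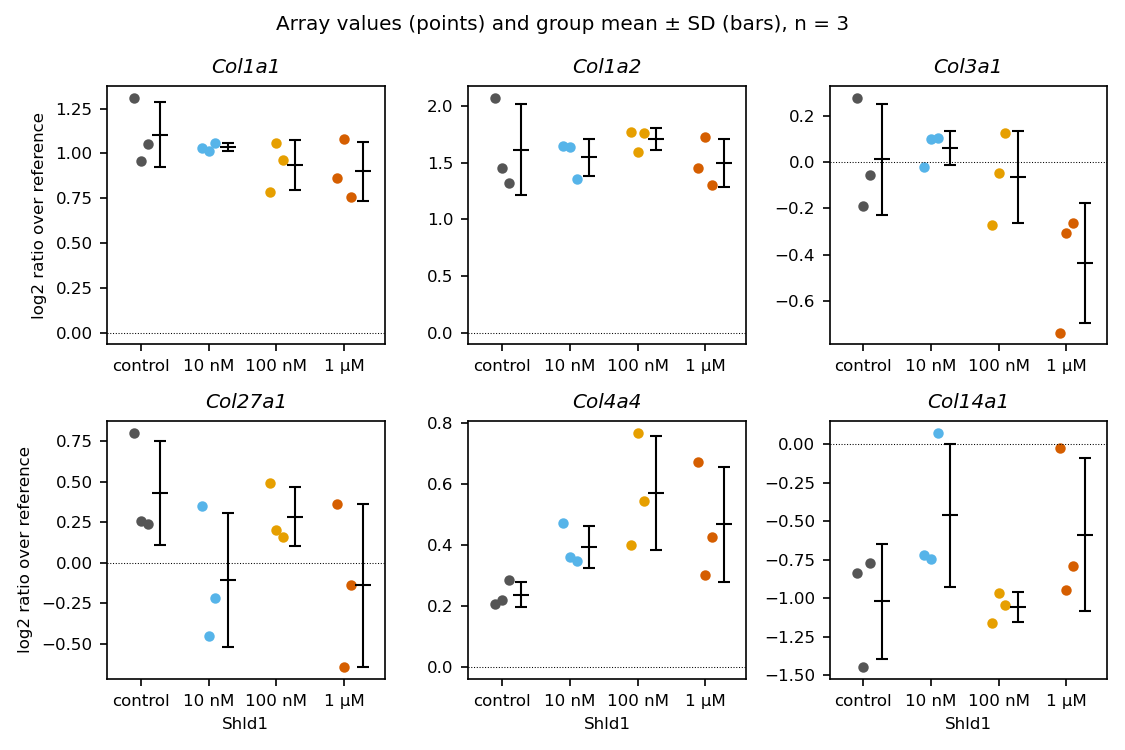
Log2 ratios over the reference (vertical axis) of 6 collagen genes are shown by Shld1 dose, with 1 point per array and the group mean ± SD beside them (n = 3). The 1 µM points of Col3a1, each a mean of 2 probes, run between -0.74 and -0.26 and lie under its control points. The Col4a4 dose points, each a mean of 2 probes, lie above its control points, and the 1 µM points of the other 4 genes overlap control.

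Col4a4, the mean of 2 probes, was the 1 gene of the 30 collagens with values on every array whose dose groups lay wholly above control at all 3 doses, and 0 lay wholly below. Of all genes, 0.27% lay wholly above control at all 3 doses and 0.169% wholly below, and the 3 comparisons share the control arrays. Its log2 ratios were 0.21, 0.22 and 0.28 on the control arrays, 0.47, 0.36 and 0.35 at 10 nM, 0.40, 0.77 and 0.55 at 100 nM and 0.67, 0.30 and 0.43 at 1 µM. All 9 treated arrays were above the highest control array in this mean, but not in either probe alone. One probe had 10 nM array 3 at -0.38 and 1 µM array 2 at -0.42, under its lowest control array at -0.18. The other had 10 nM array 1 at 0.48 and 1 µM array 3 at 0.47, inside its control range of 0.45 to 0.63. The background of genes lying wholly above control was 3.11% at 10 nM, 4.07% at 100 nM and 3.36% at 1 µM. The difference at 100 nM was 0.33 (SE 0.15, 95% interval 0.01 to 0.66, unadjusted p 0.0431, adjusted p 1.00 in limma with Benjamini-Hochberg), and the mean of the doses differed from control by 0.24 (SE 0.12, unadjusted p 0.0689). None of these passed the adjusted test.

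At 100 nM 0 of 33 collagen genes passed, with a background of 0%, and 1, Col4a4, had an unadjusted p under 0.05, where 3.02% of all genes did. The estimates of 13 of 33 were below 0, where 46.1% of all genes were, and the median difference was 0.02, the same as over all genes. Only Col4a4 of the 31 collagen genes with values on all 6 arrays was separated above control, where 4.07% of all genes were. Separated below it were 0, where 3.26% of all genes were. After Col4a4 the smallest p belonged to Col9a2, with 1.66, 1.26 and 1.23 at 100 nM, against 1.25, 0.90 and 0.82 in control cells. The difference of 0.39 (SE 0.20) did not pass, and 1 of the 100 nM arrays lay inside the control range. Col13a1 (-0.38, SE 0.21), Col15a1 (0.33, SE 0.21) and Col4a5 (0.23, SE 0.20) followed.

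At 10 nM 0 of 33 collagen genes passed, with a background of 0%, and 0 had an unadjusted p under 0.05, where 2.48% of all genes did. Estimates were below 0 for 16 of 33, where 51.6% of all genes were, and the median difference was 0.00, against -0.01 over all genes. Col4a4, Col14a1 and Col15a1 lay wholly above control, 3 of 32 genes with values on all 6 arrays, where 3.11% of all genes did. Wholly below control lay 0 of the 32, where 3.28% of all genes did. Col15a1 had values of -0.02, -0.44 and -0.17 at 10 nM, against -0.94, -0.46 and -0.47 in control cells, a difference of 0.42 (SE 0.21, unadjusted p 0.0740 in limma). The gap between the groups was narrow, since the lowest 10 nM array was next to the highest control array. Col14a1 had -0.72, -0.74 and 0.08 at 10 nM, against -0.84, -1.45 and -0.77 in control cells, a difference of 0.56 (SE 0.29, unadjusted p 0.0772 in limma). The gap of Col14a1 was narrow too, with its lowest 10 nM array at -0.74 and its highest control array at -0.77. Leaving out each array in turn gave Col14a1 differences between 0.29 and 0.70. Below control stood Col27a1 by -0.54 (SE 0.28), Col6a2 by -0.27 (SE 0.22) and Col4a2 by -0.22 (SE 0.20).

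Across the doses 0 of 33 collagen genes passed in the F test, for the linear trend over dose rank or for the mean of the doses, each with a background of 0% of all genes. At an unadjusted p under 0.05 the mean of the doses had 0 collagen genes, where 3% of all genes did, and the F test 0, where 2.91% did. For the mean, Col27a1 (-0.42, SE 0.23), Col14a1 (0.32, SE 0.23), Col4a2 (-0.20, SE 0.16) and Col1a1 (-0.15, SE 0.12) followed Col4a4. The trend had 1, Col3a1, where 3.56% of all genes did, at -0.15 per step of dose (SE 0.06, unadjusted p 0.0243, adjusted p 1.00 in limma with Benjamini-Hochberg). Its group means were 0.01 in control cells, 0.06 at 10 nM, -0.06 at 100 nM and -0.44 at 1 µM. The lowest mean was at the highest dose, where the difference from control did not pass. The trend estimate was below 0 for 24 of 33 collagen genes, where 51.9% of all genes were, and the collagen median was -0.02 per step. These included 10 of 11 fibrillar genes, but a sign says nothing of size. The trends of Col5a1 (-0.001, SE 0.06), Col11a2 (-0.001, SE 0.06) and Col5a3 (-0.005, SE 0.09) were close to 0. All trends share the same arrays. After Col3a1 came Col4a4 (0.09), Col1a1 (-0.07), Col27a1 (-0.13) and Col6a1 (-0.07). The smallest unadjusted F-test p values were 0.0659 for Col3a1, 0.0671 for Col15a1, 0.142 for Col14a1, 0.143 for Col13a1 and 0.156 for Col27a1, from limma.

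The intervals show how large a difference these arrays left room for. The 95% interval lay within 1 log2 unit of 0, that is within a 2-fold difference, for 28 of 33 collagen genes at 10 nM (84.8% of all genes), 32 at 100 nM (84.8%) and 28 at 1 µM (83%). The interval of Col24a1 at 1 µM ran between -2.15 and 1.87. The others that went past 1 log2 unit at 1 µM were Col27a1, Col4a6, Col16a1 and Col14a1.

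**Figure D4:**
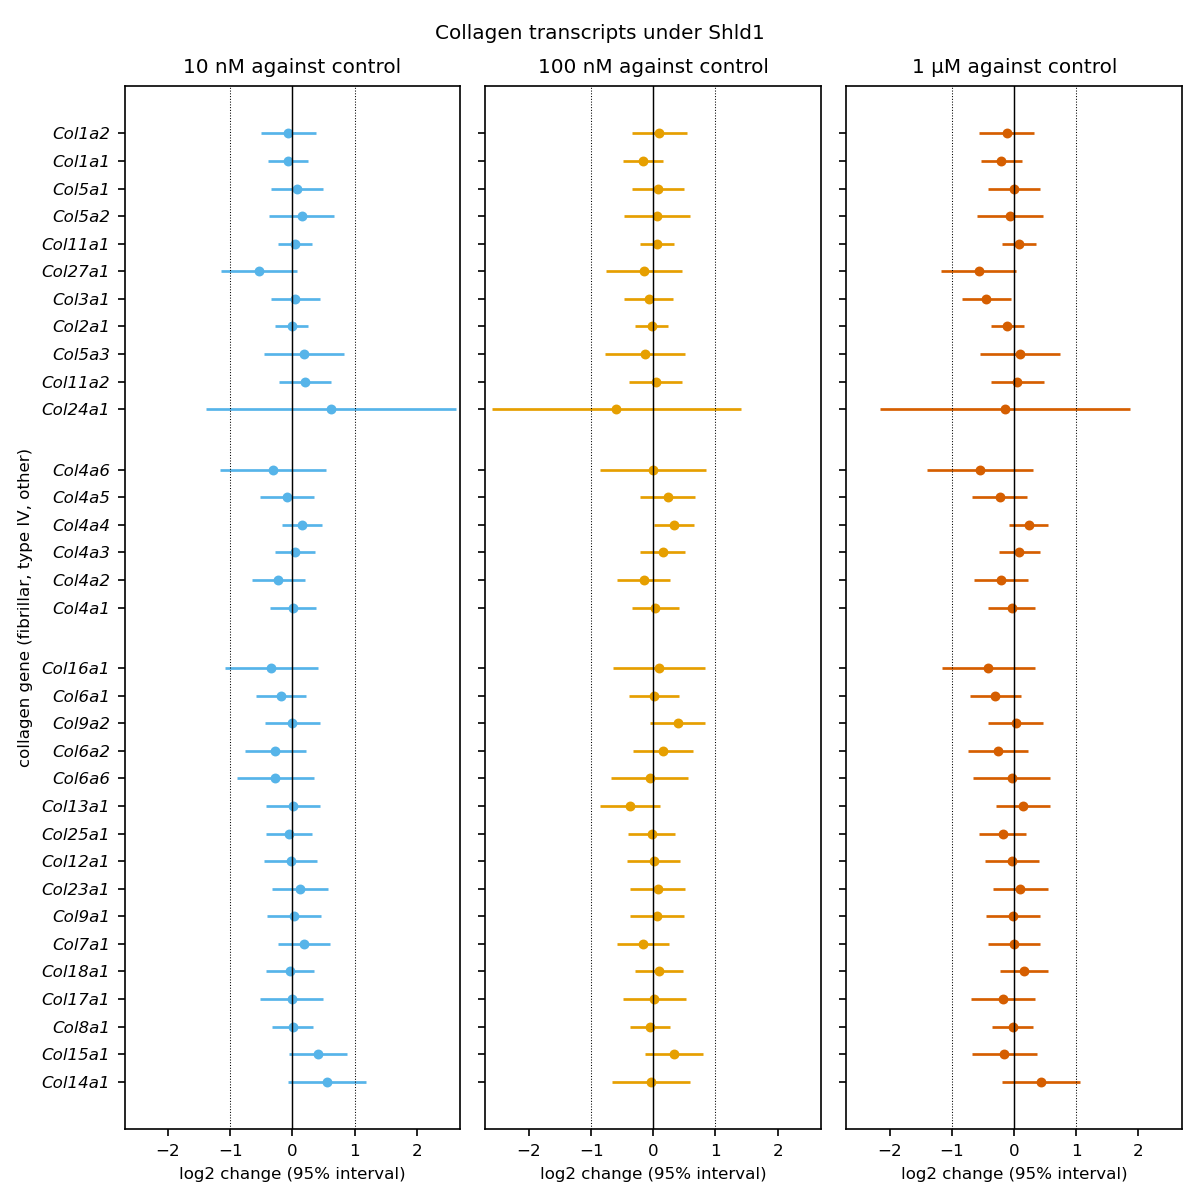
The log2 difference from control (horizontal axis) of the 33 tested collagen genes is drawn as a point with its 95% interval at 10 nM, 100 nM and 1 µM, with dotted lines at 1 log2 unit on either side of 0. Only the interval of Col4a4 at 100 nM (0.01 to 0.66) and that of Col3a1 at 1 µM (-0.84 to -0.06) leave out 0, before any adjustment over genes.

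Chains that assemble into a common molecule were compared over the 12 arrays in 4 pairs, with 2-sided permutation p-values adjusted by Benjamini-Hochberg over the pairs. The type VI chains Col6a1 and Col6a2 varied together most closely, with Pearson r = 0.75 (permutation p 0.00712, adjusted 0.0285) and Spearman rho = 0.62 (permutation p 0.0374, adjusted 0.150). Without the 2 arrays farthest from the median of Col6a1, r was 0.39. Leaving out the extremes of 1 gene narrows its range, which by itself can lower r. The adjusted p of r was above 0.05 without control array 1 (r = 0.72, adjusted permutation p 0.0534), 100 nM array 3 (r = 0.67, 0.110) or 1 µM array 3 (r = 0.57, 0.270). Without 100 nM array 2, r was 0.90 (adjusted permutation p 0.00136), and 0.75 when the 2 farthest arrays were also left out. As deviations from the means of group and replicate number, the pair had r = 0.67 (adjusted permutation p 0.0389) and rho = 0.72 (adjusted 0.0476), and r = 0.72 without the 2 farthest arrays. These deviations depend on each other, which the permutations do not take into account.

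The type I chains Col1a1 and Col1a2 had r = 0.50 (permutation p 0.0989, adjusted 0.152) and rho = 0.27 (permutation p 0.408, adjusted 0.408), and without the 2 farthest arrays r was -0.26. Without control array 1 their r was 0.09, and without 100 nM array 1 it was 0.71 (adjusted permutation p 0.0468). As deviations from the means of group and replicate number it was 0.70 (adjusted permutation p 0.0389), with rho = 0.60 (adjusted 0.0848), and r = 0.47 without the 2 farthest arrays. Col4a1 and Col4a2 had r = 0.35 (permutation p 0.276, adjusted 0.276) and rho = 0.46 (permutation p 0.134, adjusted 0.178), and without the 2 farthest arrays r was 0.04. Leaving out control array 2, on which Col4a1 was low and Col4a2 high, gave r = 0.85 (adjusted permutation p 0.0144). Col5a1 and Col5a2 had r = -0.44 (permutation p 0.114, adjusted 0.152) and rho = -0.48 (permutation p 0.114, adjusted 0.178), and r stayed at -0.44 without the 2 farthest arrays. No value was computed within a replicate number, each of which holds 4 arrays. Both values of a pair come from the same array and share its ratio scale.

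**Figure D5:**
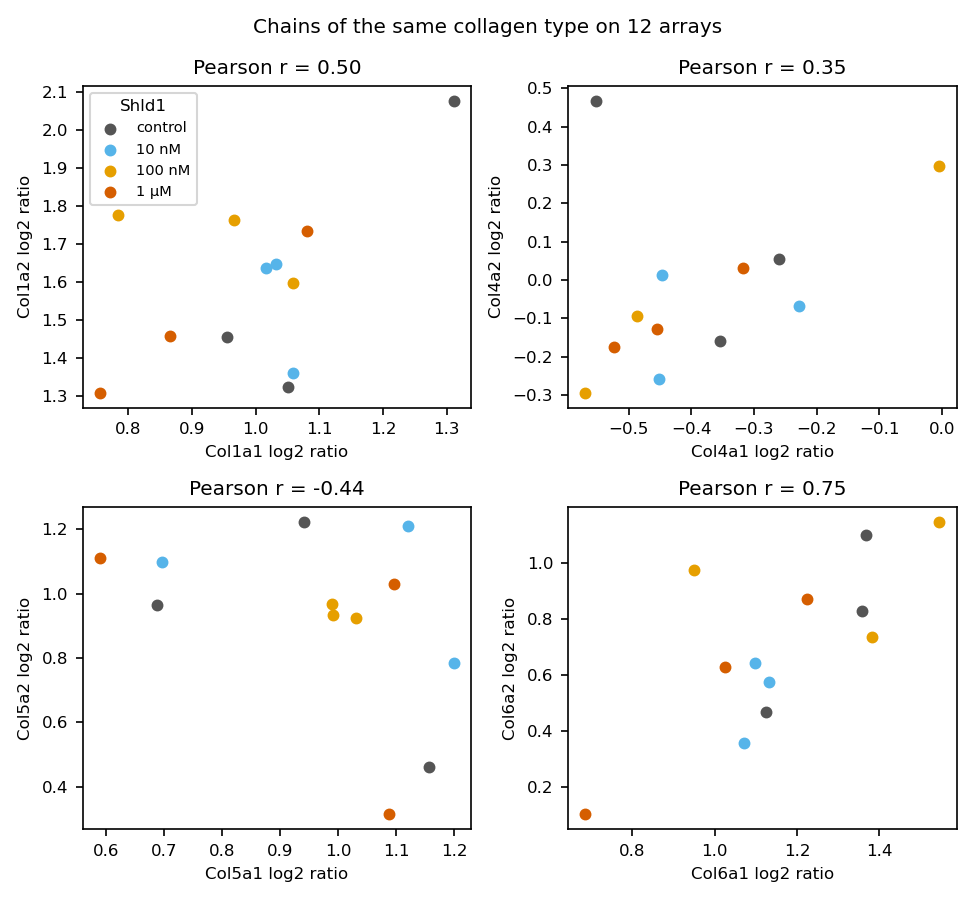
Each panel sets the log2 ratio of 1 chain (horizontal axis) against that of its partner (vertical axis) on the 12 arrays, coloured by Shld1 dose. Pearson r was 0.50 for Col1a1 and Col1a2, 0.35 for Col4a1 and Col4a2, -0.44 for Col5a1 and Col5a2 and 0.75 for Col6a1 and Col6a2.

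The genes that fold, export, trim, cross-link, bind and degrade collagen were taken as lists of 58 genes, of which 49 were tested. None of them passed in limma at 10 nM, 100 nM or 1 µM, and an unadjusted p under 0.05 was found for 3 at 10 nM, 1 at 100 nM and 6 at 1 µM, where 2.48%, 3.02% and 4.26% of all genes had one. At 1 µM the median difference was -0.03 over the 49, and 28 of them had estimates below 0, where 53% of all genes did. By list these were 13 of 20 folding and modification genes, 2 of 7 export genes and 2 of 3 trimming genes. The rest were 4 of 5 cross-linking genes, 3 of 7 receptors and 4 of 7 degrading enzymes. Against the reference, 21 of the 49 passed as higher, where 38.6% of all genes did, and 12 as lower, where 34.4% did. Serpinh1, which encodes the collagen chaperone Hsp47, was higher at 1.31 (SE 0.07) and differed from control by -0.00 at 1 µM. Lox, the enzyme that cross-links collagen, was higher at 2.07 (SE 0.09) and differed by -0.30 (SE 0.26) at 1 µM.

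The hydroxylases and isomerases had other ratios. P4ha1, the catalytic subunit of prolyl 4-hydroxylase, was lower than the reference at -1.40 (SE 0.11) and Plod2, a lysyl hydroxylase, at -1.33 (SE 0.11). P4hb, the other subunit of prolyl 4-hydroxylase, averaged -0.01 and Ppib, the prolyl isomerase cyclophilin B, -0.16, and neither passed. At 1 µM these 4 differed from control without passing, by -0.07 for P4ha1, 0.26 for Plod2, 0.09 for P4hb and -0.23 for Ppib. The listed genes of smallest unadjusted p at 1 µM were, among folding genes, Pdia6 (-0.78, SE 0.27) and, among export genes, Sec13 (-0.37, SE 0.16). Among those that trim the chain ends it was Pcolce2 (0.39, SE 0.41). Among the cross-linking genes it was Loxl4 (-0.40, SE 0.15), among the receptors Itga11 (-0.60, SE 0.28) and Lair1 (0.41, SE 0.18), and among the degrading enzymes Mmp8 (0.96, SE 0.34) and Mmp2 (-0.41, SE 0.19). Each had an adjusted p of 0.999 in limma with Benjamini-Hochberg.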

How the data were processed

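RNA of 3T3 cells was measured on 12 arrays of 2 colours, grouped by the labels. The authors deposited a log ratio per probe and array, whose base is not stated and was taken as 2 (log2). How the authors normalized, corrected for background or filtered spots is not stated in the sources used here. Scanner intensities were not analysed here, so signal over background is unknown.

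Symbols came from the platform annotation (26173 probes with 1 symbol, 28 with several, 12583 with none). Arrays were centred on their medians. Probes with 12 values were averaged per gene, and a gene without such a probe took the probe with the most values. Genes with values on at least 2 arrays of every group were fitted by limma 3.58.1 (R 4.3.3) with group as the only term, and Benjamini-Hochberg adjustment over all 14523 genes at 0.05. Chain pairs used 100000 permutations (scipy 1.17.1, Python 3.11.15), and figures matplotlib 3.10.9. On simulated data (1 µM against control, 14523 genes, 200 changed) the fit called 11.6% of genes changed 1.5-fold, 55% at 2-fold, 88.4% at 4-fold and 97.4% at 8-fold. All sizes were planted together, in equal numbers, with independent normal noise. Large changes ease the adjusted cut-off for small ones, so the shares may be too high for data without them.

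The collagens, the lists and the rule for named genes were chosen with earlier results of these data known. The rule names all fibrillar, type IV and type VI genes, the 5 highest and 5 lowest others against the reference, the 5 of smallest p in each comparison, fixed pathway genes, and up to 3 more per pathway list. Alternatives were no centring, other scalings and normalizations, other filters and probe rules, the replicate number as a block, and leaving out each array. Each probe of Col3a1 and Col27a1 alone was added after the data were seen.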

Additional observations from a re-analysis of the deposited data

How the results depend on the processing

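Under every alternative run, 0 collagen genes passed at any dose, for the mean, the trend or the F test. The count against the reference stayed within 1.5 times, at 22 to 26 of 33 for all groups and 14 to 19 for control cells when arrays were left out. The median at 1 µM was -0.0040 after quantile normalization, -0.081 with the mean of all probe values and -0.073 with 1 value per probe, and leaving out arrays gave -0.080 to -0.024, -0.039 to 0.051 at 10 nM and -0.020 to 0.051 at 100 nM. Col1a2 at 1 µM turned to 0.0068 after quantile normalization, and leaving out arrays gave -0.27 to 0.11, the highest without control array 1. The cause was not tested. As deviations from group and replicate means, r was -0.0097 for Col4a1 and Col4a2 and 0.70 for Col1a1 and Col1a2, which then passed (adjusted permutation p 0.0389). Leaving out arrays gave r of 0.094 to 0.71 for Col1a1 and Col1a2, 0.025 to 0.85 for Col4a1 and Col4a2, and 0.57 to 0.90 for Col6a1 and Col6a2. With the replicate number as a block, 0 collagen genes passed at a dose and 27 against the reference, and Col3a1 at 1 µM had an adjusted p of 0.912 in limma. The array numbers in the titles run by replicate number, but the labels do not say what a replicate number shares. Same-numbered arrays correlated between -0.11 and 0.28 in their deviations, over 0.1 in 10 of 18 pairs, all 6 pairs of number 1 among them, and 8 of 12 arrays correlated best with their own number. Arrays of different numbers and groups correlated between -0.34 and 0.20. Not every same-numbered pair was over 0.1, so the numbers were not taken to pair the arrays. What same-numbered arrays share was not tested. Col3a1 against the reference passed as lower after quantile normalization (-0.26). The arrays were not centred on their medians in that run, and without centring alone Col3a1 was also at -0.26.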
